A study of Mus musculus with 3 samples.

Results

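The splenic stroma identity genes followed here are 10 genes, 3 transcription factors (Tlx1, Tcf21 and Wt1), 4 cell surface molecules (Pdpn, Vcam1, Icam1 and Madcam1), the receptor gene Ltbr and the 2 ligand genes Tnfsf11 and Tnfsf13b. They were chosen by name, through the transcript accession of each array probe, and all 10 were found among the 20577 named genes of the array, on 13 of its probes. RNA of hepatocyte-like cells (iHep), primary mouse hepatocytes (PH) and primary mouse spleen fibroblasts (MF) was hybridised to 1 one-colour array each, and per the series' design text each RNA was a pool of 5 samples. All came from female mice, whose strain and age are not given in the sources used here. MF and iHep both started from fibroblasts of spleens remodelled with SiO2 (silica) particles. MF received the lentivirus LV-NC and iHep the lentivirus LV-3TF, and both were collected after 14 days, whereas PH were freshly isolated and served as the positive control. MF is therefore a cultured, virus-treated population and not intact splenic stroma.

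The stroma of the spleen is a scaffold of mesenchymal reticular cells that holds blood cells in place and tells lymphocytes where to settle. Tlx1, Tcf21 and Wt1 are transcription factors that the spleen needs in order to form in the mouse embryo. Lymphotoxin from lymphocytes acts on the lymphotoxin beta receptor of stromal cells, which signals through NF-kB and raises adhesion molecules, chemokines and cytokines in organiser cells. These genes are not exclusive to splenic stroma: Wt1 and Pdpn are also mesothelial genes, and Vcam1 and Icam1 are also made by endothelium and macrophages.

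With 1 array per group there was no replicate and no test, and "higher" and "lower" describe these arrays only. A signal is the scanner software's background-subtracted brightness in arbitrary units, and a level is its log2 relative to the array's 75th percentile. That percentile was 3752 on the iHep array, 2081 on the PH array and 544.3 on the MF array, so equal signals are not equal levels. Each member probe was printed as 1 spot. Replicate spots of other probes put the SD of a log2 difference at 0.14 between iHep and MF, at 0.15 between PH and MF and at 0.15 between iHep and PH, and between 0.26 and 0.31 at levels under -4. Probes of the same gene disagreed by an SD of 0.84, 1.11 and 1.09 in the same order. A gene was called higher or lower at 2-fold. Where a gene was well above background on 1 of the 2 arrays compared, its fold is a bound ("at least"), taken against the dim reading itself or, where that was lower, against the array's detection floor. The floor is the smallest level among probes called well above background, -7.32 for iHep, -6.89 for PH and -6.30 for MF. MF was scanned apart from iHep and PH, which had 1 scan in common, so scan and group cannot be told apart in comparisons with MF.

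The markers of the labelled cells were checked first. All 9 matched hepatocyte markers were called higher in PH than MF, all 9 were lower in iHep than PH, and 1 of the 8 compared was higher in iHep than MF. That 1 was Hnf4a, 101-fold higher, with levels of 1.04 in iHep and -5.62 in MF. The levels of the 9 markers spanned -8.78 to 1.04 in iHep, 3.82 to 6.70 in PH and -8.24 to -0.24 in MF. The hepatocyte-like label of iHep was thus not borne out by most of these markers. Of 12 fibroblast markers, 11 were lower in iHep than MF and 10 lower in PH than MF; the other 2, Lum (lumican) and Dcn (decorin), were 27.6-fold and 2.07-fold higher in PH than MF. Markers of other cell types were read as well. Of 9 macrophage markers, 6 were well above background in iHep, 9 in PH and 9 in MF, with levels from -9.60 to 0.27, from -1.81 to 4.98 and from -1.96 to 4.81. Of 10 endothelial markers, 4, 10 and 7 were above background on the same arrays, with levels from -9.58 to -1.38, -2.16 to 4.42 and -8.47 to -1.05. Cdh5, the endothelial cadherin, was not above background in iHep or MF and stood at 3.19 in PH.

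Of the 8 members of the set that could be compared between iHep and MF, 6 were at least 2-fold lower and none was higher, against 23.3% of all compared genes lower and 19.8% higher. The median log2 difference of these 8 was -4.40 (-3.95 with bounds), beside 0.09 for all genes. Pdpn, Icam1 and Tnfsf11 were above background in MF but not in iHep, so they could only be called lower or left uncalled. Among probes above background on all arrays, 3 of 5 members were lower. In PH over MF the set split, with 3 of 10 members higher and 4 lower, against 30.7% of genes higher and 25.3% lower, and a median of -0.80 beside 0.12. Those 3 were Tcf21, Icam1 and Madcam1; 1 of them, Madcam1, was past 4-fold, against 18.3% of genes, and none was past 2-fold under normexp background correction. In iHep over PH, 7 of 9 members were lower and none higher, against 35.8% and 23.2% of genes, with a median of -2.42 beside -0.30. Tlx1, Tcf21, Pdpn and Icam1 were above background in PH but not in iHep, so here they could only be called lower or left uncalled. Among probes above background on all arrays, 3 of 5 were lower. In PH over MF, Tlx1 and Tcf21 could only be called higher and Tnfsf11 only lower. The shares of all genes were counted by the same rule. The 3 comparisons share arrays and are not separate evidence. On the iHep array 5 of 10 members were well above background, on PH 9 and on MF 8, beside 16360, 17379 and 14996 of all 20577 genes. In pools of this kind fewer cells of a type and less RNA per cell cannot be told apart.

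**Figure D1:**
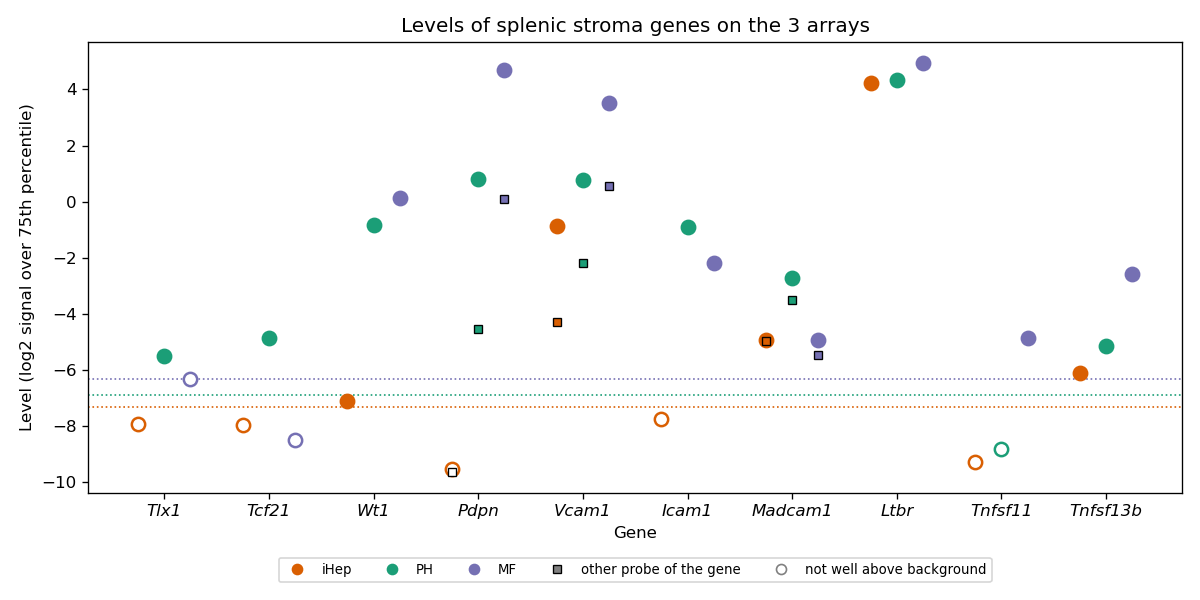
Levels of the 10 genes on the iHep, PH and MF arrays, as log2 signal over the array's 75th percentile. Circles are the probe used for the gene and squares the other probe of Pdpn, Vcam1 and Madcam1; open symbols were not well above background, and dotted lines mark each array's detection floor. Pdpn stands at 4.70 in MF with both iHep readings open, while the 3 levels of Ltbr lie between 4.22 and 4.95.

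Tlx1 (Hox11) is the homeobox factor without which the mouse spleen does not persist. Its signal was 15.5 in iHep and 46.0 in PH, against 6.82 in MF. Only the PH reading was well above background, at a level of -5.50. That made iHep at least 3.54-fold lower than PH, and PH at least 1.75-fold higher than MF, which is short of the 2-fold threshold. In the authors' deposited table Tlx1 read 4.40 in PH and 4.72 in MF, the opposite order, and the bound of PH over MF was not obtained there, under quantile normalization or under normexp. The MF level of -6.32 lay just under that array's floor of -6.30. The bound of iHep over PH was under 2-fold under quantile normalization (-0.69 log2), the authors' processed values (-0.50) and a common floor (-0.80).

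Tcf21, a basic helix-loop-helix factor of embryonic mesenchyme, gave a signal of 15.1 in iHep and 71.3 in PH, against 1.504 in MF. It too was above background in PH alone, at a level of -4.87. PH was at least 2.71-fold higher than MF and iHep at least 5.49-fold lower than PH, a bound of -2.46 log2 that was -1.15 in the authors' processed values. The PH over MF bound was 0.31 log2 with quantile normalization, and the authors' processed values gave 0.31. So of the 3 factors that specify the spleen, the cultured spleen fibroblasts gave a reading above background for Wt1 only.

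Wt1, a zinc finger factor of mesothelium and of spleen mesenchyme, had a signal of 27.2 in iHep and 1166 in PH, against 603.6 in MF. All 3 readings were above background, at levels of -7.11 in iHep, -0.84 in PH and 0.15 in MF. iHep was 153-fold lower than MF and 77.3-fold lower than PH. These differences, -7.26 and -6.27 log2, were -5.37 and -4.42 under normexp, and the iHep level lay just above its floor of -7.32. The software's error of the iHep signal was 20.5% and that of the PH and MF signals 10%. PH and MF differed by -0.98 log2, under 2-fold and within the disagreement between probes; with quantile normalization the value was -1.09, past 2-fold.

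Wt1 is also a mesothelial gene, and the mesothelial list was read beside it. Of 7 matched mesothelial markers, 5 were lower and 2 higher in iHep than MF, with levels from -9.58 to 3.81 in iHep, from -2.47 to 2.36 in PH and from -3.003 to 1.21 in MF. All 7 were above background in PH and in MF, and 4 in iHep. Of all genes, 23.3% were lower and 19.8% higher in iHep than MF. Upk3b, an uroplakin family gene of mesothelium, was at least 346-fold lower, Lrrn4 at least 53.2-fold lower and Aldh1a2, a retinoic acid synthesising enzyme, 72.8-fold lower in iHep than MF. Msln, mesothelin, ran the other way and was 6.07-fold higher. In PH over MF 2 of the 7 were higher and 2 lower, against 30.7% and 25.3% of all genes. The part of the mesothelial markers in the Wt1 and Pdpn readings was not tested.

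Pdpn, podoplanin, is a sialomucin of reticular fibroblasts and lymphatic endothelium that binds CLEC-2 on platelets and helps cells contract the stromal network. Its brighter probe had a signal of 5.07 in iHep and 3661 in PH, against 14178 in MF. iHep lay under background, PH at a level of 0.81 and MF at 4.70. iHep was at least 4174-fold lower than MF and at least 282-fold lower than PH, and PH was 14.8-fold lower than MF. The other probe read 4.72 in iHep and 88.7 in PH, against 579.2 in MF, which gave iHep at least 171-fold lower than MF and PH 25.0-fold lower than MF. By that probe iHep was at least 6.83-fold lower than PH. Across the alternatives the value of iHep over MF, a bound of -12.03 log2, ran between -14.23 and -9.72. That of iHep over PH, a bound of -8.14, ran between -10.35 and -5.46. The values of -14.23 and -10.35, with no filter on dim probes, are differences as read and not bounds. Both probes placed the arrays in the same order, with MF highest, although the brighter probe's bound between iHep and MF was far larger. The software's error was 99.6% of the brighter probe's iHep signal, so that reading has no size of its own beyond the bound.

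Vcam1 carries lymphocytes and blood cell precursors on stromal and endothelial surfaces through the integrin alpha4 beta1. Its brighter probe had a signal of 2084 in iHep and 3527 in PH, against 6205 in MF. The levels were -0.85, 0.76 and 3.51 in that order, all above background. iHep was 20.5-fold lower than MF, PH 6.73-fold lower than MF, and iHep 3.05-fold lower than PH. The other probe gave 29.0-fold, 6.74-fold and 4.30-fold lower for the same comparisons. Among members with more than 1 probe, Vcam1 had the closest agreement in PH over MF, -2.75 log2 by both. It stayed past 2-fold in all 8 alternatives of each comparison. Macrophages also make Vcam1 and Icam1, and 7 of 9 macrophage markers were lower in iHep than MF, against 23.3% of all genes. The part of these markers in the Vcam1 and Icam1 readings was not tested.

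Icam1 is the adhesion ligand of leukocyte integrins and a much used NF-kB target in endothelium and stroma. Its signal was 17.4 in iHep and 1108 in PH, against 118.8 in MF. iHep was not above background, and the levels of PH and MF were -0.91 and -2.20. iHep was at least 35.0-fold lower than MF and at least 85.3-fold lower than PH, while PH was 2.44-fold higher than MF. That last difference, 1.29 log2, was 0.93 under normexp. The bound of iHep over MF, -5.13, was -3.77 under normexp and -4.11 with a common floor, and that of iHep over PH, -6.41, was -4.70 and -5.39.

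Madcam1 is the vascular and stromal addressin that binds the integrin alpha4 beta7, and in mouse spleen it marks the lining cells of the marginal sinus. The probe used gave 122.3 in iHep and 313.0 in PH, against 17.9 in MF. Once scaled, iHep and MF did not separate, with levels of -4.94 and -4.93, and PH stood above both at -2.73. PH was 4.57-fold higher than MF and iHep 4.61-fold lower than PH. The other probe put iHep 1.43-fold higher than MF, PH 3.93-fold higher than MF and iHep 2.74-fold lower than PH. Under normexp the difference of iHep over MF was -1.45 log2 (past 2-fold) and that of PH over MF 0.31. PH over MF was 1.49 with quantile normalization.

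Promoters are shown only for the members in which a kB-like word, given below, was found, Icam1 and Madcam1. Both are known NF-kB targets. They were also the 2 surface genes higher in PH than in MF, though neither call held under normexp. Pdpn and Vcam1 were 14.8-fold and 6.73-fold lower in PH than MF. No promoter of Vcam1 was available to search, so its lack of a word here says nothing. A link between the words and these levels was not tested. The sequences are the 250 bases before the gene's start, 5′ to 3′, from RefSeq on GRCm38.p6, plus strand for both genes: chr9:21015690-21015939 for Icam1 and chr10:79664309-79664558 for Madcam1. Capitals mark a match to a kB-like word. The words GGAAATTCC and GGGNTTNCC were searched on both strands, and no 9 bases can match both.
Icam1: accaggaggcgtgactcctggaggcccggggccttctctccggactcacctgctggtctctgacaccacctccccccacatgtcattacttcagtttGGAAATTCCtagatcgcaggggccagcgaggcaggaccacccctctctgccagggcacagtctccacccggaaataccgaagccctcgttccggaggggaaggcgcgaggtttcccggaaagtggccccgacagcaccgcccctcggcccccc
Madcam1: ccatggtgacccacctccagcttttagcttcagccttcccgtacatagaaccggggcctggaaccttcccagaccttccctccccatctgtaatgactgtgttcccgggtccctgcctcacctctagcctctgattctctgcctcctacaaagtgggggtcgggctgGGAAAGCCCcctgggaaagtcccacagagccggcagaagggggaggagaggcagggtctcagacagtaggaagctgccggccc
Icam1 holds GGAAATTCC from base 153 to base 145 before the start, and Madcam1 holds GGAAAGCCC, a reverse match to GGGNTTNCC, from base 83 to base 75 before it. The table held 9 promoters of 8 members (Tnfsf13b with 2, and none of Wt1 or Vcam1), each reaching 50 bases past the start. GGAAATTCC occurred in 0.317% of all 32851 promoters and in 1 of these 9, and GGGNTTNCC in 4.66% of all and in 1 of these 9. The E-box CACGTG occurred in 7.15% of all and in 2 of these 9, Pdpn and Ltbr. A match describes the letters and was not read as a binding site.

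**Figure D2:**
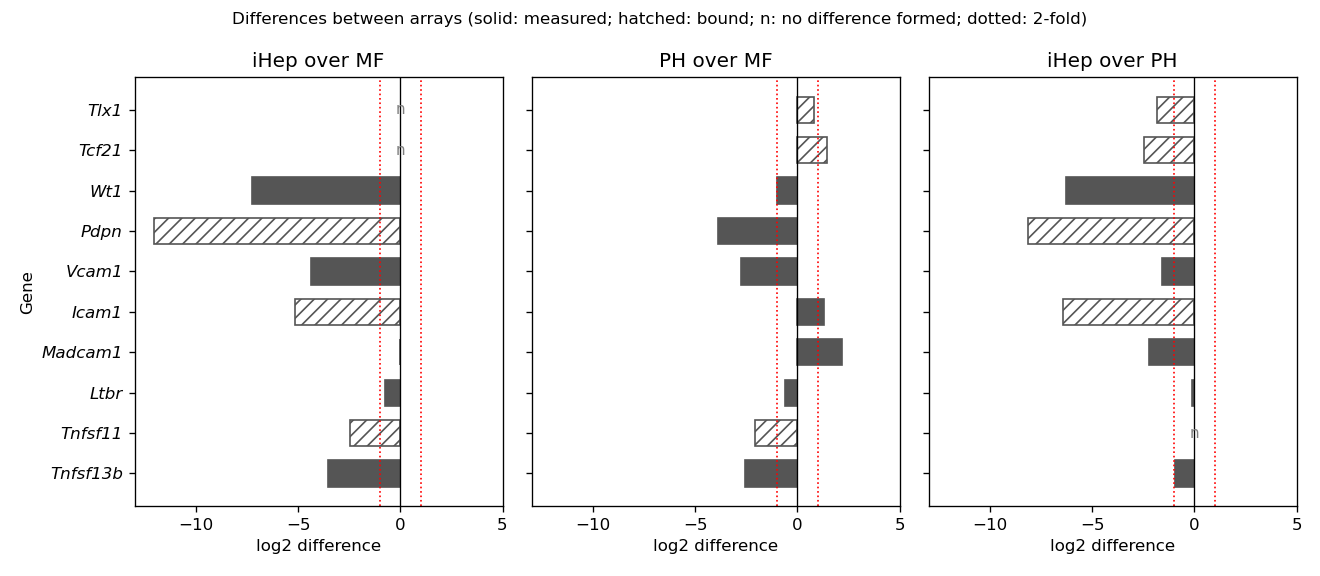
Log2 differences of each gene in 3 panels, iHep over MF, then PH over MF, then iHep over PH. Solid bars are measured, hatched bars are bounds, "n" marks a gene with no difference formed and dotted lines mark 2-fold. The bar of Pdpn in iHep over MF reaches -12.03, while in PH over MF the bars of Tlx1, Tcf21, Icam1 and Madcam1 point to the right.

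Ltbr, the lymphotoxin beta receptor, had the narrowest range of levels among the 5 members above background on all 3 arrays. Its signal was 69691 in iHep and 41645 in PH, against 16791 in MF, and its levels were 4.22 in iHep, 4.32 in PH and 4.95 in MF. The difference between iHep and PH, -0.11 log2, was smaller than the spot error pooled over all levels. At levels of 0 and over, the SD between spots of a single array was smaller, 0.06 on iHep and 0.07 on PH. The differences of iHep over MF (-0.73) and PH over MF (-0.62) were above the pooled spot error but under 2-fold and within the disagreement between probes. Quantile normalization put iHep over MF at -0.07 and iHep over PH at 0.64, and the authors' processed values put them at -0.07 and 0.65. Ltbr was well above background on every array, including iHep, where Icam1 was not.

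The 2 ligand genes were highest in MF. Tnfsf11, RANKL, drives osteoclast formation and lymphoid organ development. It had a signal of 6.001 in iHep and 4.62 in PH, against 19.0 in MF, and only MF was above background. iHep was at least 5.60-fold lower and PH at least 4.15-fold lower than MF, and no difference was formed between iHep and PH. With a common floor both bounds were -1.46 log2. Tnfsf13b, BAFF, keeps B cells alive and is made by stromal and myeloid cells. It had a signal of 54.2 in iHep and 58.6 in PH, against 91.5 in MF, at levels of -6.11, -5.15 and -2.57. iHep was 11.6-fold lower and PH 5.97-fold lower than MF. These differences, -3.54 and -2.58 log2, were -2.93 and -2.10 under normexp, and PH over MF was -3.41 with quantile normalization. iHep and PH were 1.95-fold apart, iHep being lower, which is under 2-fold and turned to 0.18 log2 under quantile normalization. Because BAFF is also a myeloid product, the macrophage list is set beside it: 7 of 9 markers were lower in iHep than MF, with C1qc at least 4503-fold lower, whereas in PH over MF 1 was higher and 1 lower, with C1qc at -0.05 log2. Of all genes, 23.3% were lower in iHep than MF, and in PH over MF 30.7% were higher and 25.3% lower. The part of the macrophage markers in the BAFF reading was not tested.

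The ligands' partners were few. Of 4 matched partner genes of RANKL and BAFF, 3 could be compared in iHep over MF. Tnfrsf11b, osteoprotegerin, the soluble decoy receptor of RANKL, was 98.0-fold lower in iHep than MF and 9.79-fold lower in PH than MF, with levels of -5.78 in iHep, -2.46 in PH and 0.83 in MF. Tnfrsf13c, the BAFF receptor of B cells, differed by 0.20 log2 between iHep and MF and was 2.87-fold higher in PH than MF, a call lost under normexp and quantile normalization. Tnfrsf13b, a second receptor for BAFF, lay within 2-fold of MF on both arrays. Under normexp all 3 genes compared were at least 2-fold lower in iHep than MF. The median log2 difference of these genes in PH over MF, 1.15 (0.49 with bounds), was -0.74 under normexp.

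The lymphotoxin and NF-kB list holds ligands, adaptors and transcription factors around Ltbr. Of its 24 genes, 8 were higher in iHep than MF and 5 lower, with a median log2 difference of 0.80 beside 0.09 for all genes, of which 19.8% were higher and 23.3% lower. The balance of calls turned under normexp, to 6 higher and 7 lower with a median of 0.34, and in the authors' processed values, to 3 higher and 4 lower of 18 with a median of 0.01. Traf1, a signalling adaptor that NF-kB induces, was 4.85-fold higher and Nfkb2, the p100 precursor of the alternative pathway that LTBR uses, 4.01-fold higher in iHep than MF. Tnfrsf1b, a TNF receptor, was 22.4-fold lower. In PH over MF the list had 6 genes higher and 5 lower, against 30.7% and 25.3% of all genes, and a median of 0.21. It had 3 higher and 6 lower under normexp, 3 and 7 with quantile normalization, and 0 and 5 of 18 in the authors' processed values, where the median was -0.29. Ltb, the membrane anchor of the lymphotoxin that LTBR binds, was 24.8-fold higher in PH than MF and Tnfsf14, LIGHT, the other ligand of LTBR, 3.82-fold higher, whereas Tnf was 3.92-fold lower and Nfkb2 2.50-fold lower. Lymphocytes are the usual source of Ltb. Of 10 lymphocyte markers 9 were higher in PH than MF, with 10 above background in PH and 6 in MF and levels from -6.16 to 5.69 in PH and from -8.38 to 0.69 in MF. Their part in the Ltb reading was not tested.

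The partners of the adhesion molecules are mostly integrin chains. Of 10 genes, 6 were lower in iHep than MF and 2 higher, with a median log2 difference of -1.99 (-1.43 with bounds). Of all genes, 23.3% were lower and 19.8% higher. Itga4, the alpha4 chain that pairs with VCAM1 and MAdCAM1, was at least 117-fold lower, Itgb2, the beta chain of the leukocyte integrins that bind ICAM1, 28.8-fold lower and Itgb1 9.65-fold lower. Itgb7, the beta chain of the MAdCAM1 integrin, was 4.11-fold higher in iHep and 5.40-fold higher in PH than MF. In PH over MF 3 were higher and 3 lower, against 30.7% and 25.3% of all genes. Clec1b, which encodes the podoplanin receptor CLEC-2, was 34.3-fold higher in PH than MF. Clec1b is known in mouse liver from sinusoidal endothelium, and of 10 endothelial markers 9 were higher in PH than MF and none lower, Stab2 by 157-fold and Cdh5 by at least 722-fold. Icam1, Madcam1 and Vcam1 are endothelial genes too, and the part of these cells in their PH readings was not tested.

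**Figure D3:**
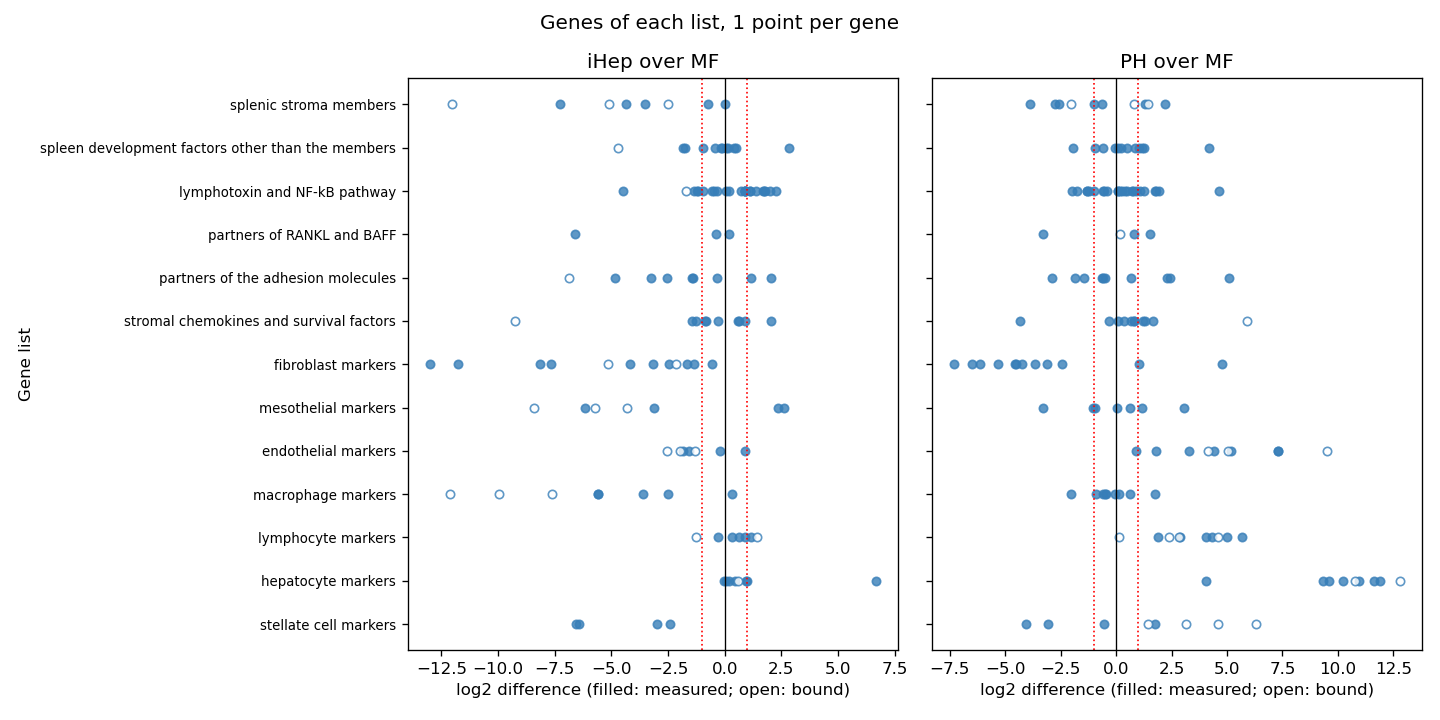
Each point is a gene, placed by its log2 difference in iHep over MF and in PH over MF, with the 10 splenic stroma genes in the top row and the other fixed lists below. Filled points are measured, open points are bounds and dotted lines mark 2-fold. In iHep over MF the splenic stroma row lies at or left of 0, with 6 genes at least 2-fold lower, while the endothelial and lymphocyte rows lie mostly to the right in PH over MF.

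Of 12 other factors of spleen development, 1 was higher and 3 lower in iHep than MF, with a median log2 difference of -0.16. Of all genes, 19.8% were higher and 23.3% lower. Barx1, a homeobox factor of foregut and spleen mesenchyme, was at least 25.8-fold lower. Nkx2-5, a homeobox factor of heart and spleen anlage, was 7.19-fold higher in iHep and 17.97-fold higher in PH than MF. In PH over MF 4 of 12 were higher and 1 lower, against 30.7% and 25.3% of all genes. The counts were 3 and 3 under normexp, 3 and 2 with quantile normalization, and 0 and 2 of 7 in the authors' processed values. The median was 0.35, and -0.62 in those last; Nr2f2, a nuclear receptor of mesenchyme and veins, was 2.36-fold higher and Barx1 3.79-fold lower.

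Of 10 stromal chemokines and survival factors compared, 3 were lower and 1 higher in iHep than MF, with a median of -0.56. Of all genes, 23.3% were lower and 19.8% higher. Cxcl12, which holds blood cell precursors near reticular cells, was at least 613-fold lower, with a level of 3.17 in PH and 1.94 in MF. Cxcl16 was 2.72-fold lower, and Il7, the lymphocyte growth factor, 4.08-fold higher, a call lost under normexp, where the list had 0 higher and 4 lower. With quantile normalization it had 2 higher and 2 lower, with a median of -0.18. In PH over MF 4 of 11 were higher and 1 lower (median 0.80), against 30.7% and 25.3% of all genes. Cxcl13, the B cell chemokine that lymphotoxin induces in stroma, was above background in PH alone, at least 60.1-fold higher than MF, Bst1 was 3.20-fold higher, and Csf1, the macrophage growth factor, was 19.97-fold lower.

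The genes nearest to each member over the 3 arrays were taken by the Euclidean distance between their 3 levels, among genes with the same background calls. The candidates differ in number, so counts are read within a pool. Of 13926 candidates above background on all 3 arrays, 229 lay within a distance of 1 of Madcam1, 183 of Ltbr, 26 of Tnfsf13b, 11 of Vcam1 and 5 of Wt1. Of 1029 above background in PH alone, 127 lay that near Tcf21 and 74 near Tlx1. Of 593 above background in PH and MF alone, 3 lay near Icam1 and 1 near Pdpn, and of 199 above background in MF alone, 49 lay near Tnfsf11. The one near Pdpn was Ckap4, a membrane protein of the endoplasmic reticulum, at a distance of 0.57, followed by Fst, follistatin, at 1.48 and Sirpa at 1.81. Vcam1 lay nearest to Slc16a3, a lactate transporter, at 0.46, Ptgis, prostacyclin synthase, at 0.48 and Dysf at 0.60. Wt1 lay nearest to Aoah (0.80), Plagl1 (0.85) and Csf2rb2 (0.89), and Icam1 to Cmpk2 (0.49), Gpr65 (0.65) and Itga9 (0.67). Ltbr lay nearest to H3f3a, a histone gene, at 0.04, and Litaf at 0.09. Tnfsf11 lay nearest to Pof1b at 0.16, and Ptger4, a prostaglandin receptor gene, was 0.56 away from Tnfsf13b. These are likenesses over 3 arrays that share the scaling of each array, with no test.

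**Figure D4:**
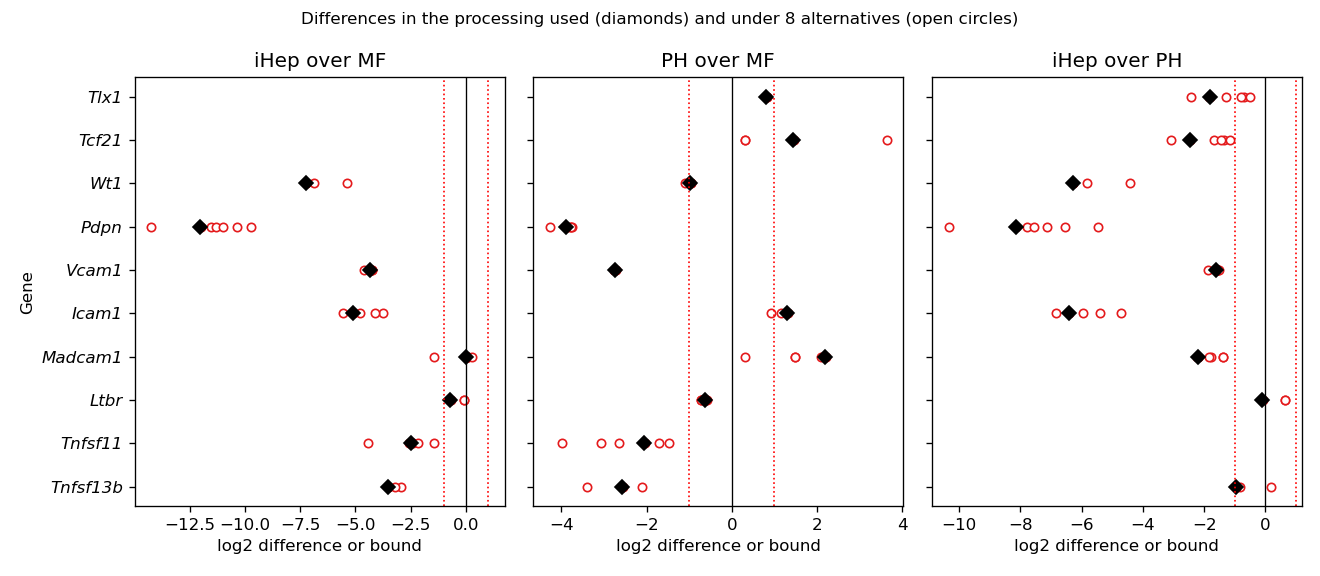
Log2 differences or bounds of each gene in the processing used here (black diamonds) and under the alternatives (open circles, up to 8 per gene), for the 3 comparisons, with dotted lines at 2-fold. The circles of Vcam1 lie close to its diamonds, those of Pdpn in iHep over MF run from -14.23 to -9.72, and those of Madcam1 in PH over MF reach down to 0.31.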

How the data were processed

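Members and gene lists were chosen with earlier results of these data known. Per the file headers, the image software was Agilent's Feature Extraction, version 11.0.1.1; version 9.1 stands in the submitters' processing notes. The deposited intensity values are background-subtracted and detrended within an array, per the file headers, with no normalization between arrays. The authors' deposited log2 value table covers 26049 probes, with 9 of the 13 member probes; its scale and centring are not stated, its column medians were 7.01, 7.07 and 7.02 for iHep, PH and MF, and it correlated with the scanner values at 0.998, 0.994 and 0.997. It served as an alternative.

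Levels are log2 of the processed intensity minus the array's 75th percentile. Control spots and flagged outlier spots were left out (230, 383 and 190 of 43020 non-control spots on iHep, PH and MF; none of a member); none was saturated. Spots of 1 probe were averaged, giving 39181 probes present on all 3 arrays. Accessions without versions were matched to RefSeq genes of GRCm38.p6, for names alone since the array was annotated on mm9: 27076 probes had 1 symbol, none several and 12105 none here. The probe with the highest mean level stands for a gene, and a probe counts as above background when most of its spots do in the software's call. No fold was formed where the probe used was dim but another of the gene was not. Ccl21a, Cd68, Muc16, Tf, Tnfrsf11a and Tnfsf13 of the fixed lists had no matched probe. Software errors are those of the scanner files.

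Named genes are all members, the 3 largest differences of each list and 1 opposite one past 2-fold, and the 3 nearest genes per member, of which the text gives some, and a few are not reported here. Alternatives were normexp (limma 3.58.1 in R 4.3.3, offset 50) on median signals, quantile normalization, median scaling, the authors' values, 2 other filters on dim probes, a common floor, averaging over all probes of a gene, and thresholds of 4-fold and 1.5-fold. Python 3.11.15 with pandas 2.3.3 was used, and the counting was tested on simulated data.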

Additional observations from a re-analysis of the deposited data

How the results depend on the processing

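Of 20 member differences past 2-fold, 20 kept their direction under all alternatives that gave a value and 16 stayed past 2-fold in all; the other 4 were Tlx1 in iHep over PH and Tcf21, Icam1 and Madcam1 in PH over MF. The cause was not tested. Except with no filter on dim probes, a bound that ran against the side of detection was dropped, so bounds could not be counted as turned. For PH over MF, Tcf21 gave no bound under normexp and Tlx1 none under normexp, quantile normalization or in the authors' values, and Icam1, Wt1 and Tnfsf13b have no probe in the authors' table.

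The 6 members lower in iHep than MF became 3 in the authors' values and 3 among probes above background on all arrays, where 5 members could be compared each time. The median of iHep over MF was -3.35 under normexp, -4.20 under quantile normalization, -3.59 in the authors' values, -3.54 among probes above background on all arrays and -3.95 with no filter. The 3 members higher in PH than MF became 0 under normexp and 1 in the authors' values, among probes above background on all arrays and at 4-fold. The 4 lower ones became 2 among probes above background on all arrays and 5 under quantile normalization, with Wt1. The median of PH over MF was -0.98 among probes above background on all arrays and -0.98 under normexp. The 7 lower in iHep than PH became 4 in the authors' values and 3 among probes above background on all arrays, with medians of -1.45 and -1.61; it was -1.66 under normexp and -1.53 under quantile normalization. The median of the RANKL and BAFF partners in PH over MF, 1.15, turned to -0.74 under normexp.

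The median of all genes moved, by -0.73 in iHep over MF and -0.63 in PH over MF under normexp, by -0.31 in PH over MF and 0.51 in iHep over PH under quantile normalization, and by -0.32 and 0.52 in the authors' values. Genes called higher made up 45.9% of those called in iHep over MF, 54.8% in PH over MF and 39.3% in iHep over PH, against 27.7%, 38.9% and 37.1% under normexp, 50.1%, 43.2% and 55.0% under quantile normalization, and 49.7%, 42.0% and 55.8% in the authors' values. No paired analysis was possible because each group has 1 array. Signal over background limits the dim readings, and the MF array was the dimmest.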

Other observations

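Markers of hepatic stellate cells, which are the mesenchymal cells of liver, were read beside the splenic set. Of 8 markers, 5 were higher and 2 lower in PH than MF, and of 5 above background in iHep or MF 4 were lower in iHep than MF and none higher. Of all genes, 30.7% were higher and 25.3% lower in PH than MF, and 23.3% lower and 19.8% higher in iHep than MF. Lrat, the retinol esterifying enzyme of stellate cells, exceeded its MF reading at least 80.0-fold in PH and was not above background in iHep or MF. Rgs5, a pericyte gene, exceeded it at least 23.9-fold. Ngfr, the low affinity nerve growth factor receptor, was 87.3-fold lower in iHep than MF and 8.27-fold lower in PH than MF. Des, desmin, was 7.96-fold lower in iHep and 16.7-fold lower in PH than MF.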
